A study of Mus musculus with 30 samples.

Results

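The comparison described here set cells labelled HL-1 that received FK866 together with nicotinamide riboside (NR) against cells of the same label that received FK866 alone. It was chosen by treatment label and takes 6 of the 30 libraries of the series, 3 with FK866 (FK) and 3 with FK866 + NR (FK_NR). The other HL-1 libraries, 3 of untreated cells (Ctrl) and 3 of cells given FK866, NR and Ex527 (FK_NR_Ex), entered the fit and are quoted beside the genes. All 12 were made from poly(A) RNA and carry no label of genotype beyond the line, and both groups compared received FK866, so NR is what differs between them. The 18 heart libraries of the series were not used. HL-1 is an established mouse line grown from an atrial tumor in which the promoter of atrial natriuretic factor drove a viral large T antigen, and the submitters list it as a cardiomyocyte. The study's methods describe replicates of its cell experiments in general as separately cultured wells, and the p-values measure the spread between such libraries of 1 line.

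NAD is a redox carrier and also a substrate that CD38, the sirtuin deacylases and the ADP-ribosylating PARPs split, which releases nicotinamide. Most cells rebuild it from nicotinamide through NAMPT, the rate-limiting enzyme of the salvage pathway, and FK866 inhibits NAMPT. NR enters the pathway after that step, since nicotinamide riboside kinases phosphorylate it to nicotinamide mononucleotide, so the comparison asks what transcripts change when a precursor that does not need NAMPT is given to cells whose NAMPT is inhibited. Ex527 inhibits the deacetylase SIRT1.

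Before the comparison, the label of the cells was checked against marker genes. Levels between genes are given in FPKM, the deposited count scaled by gene length and library size. The 12 cardiomyocyte markers summed to between 1.12 and 2.61 FPKM over the 12 libraries, and none exceeded 1.51 FPKM in any library. Actc1 was at 0 in all 6 libraries compared, and Myh6, Tnni3, Nppa, Actn2, Mybpc3 and Ryr2 lay at or near 0. By contrast Col3a1 lay between 191 and 303 FPKM and Col1a1 between 69.8 and 91.2 FPKM in these 6 libraries. Of the cardiac transcription factors, Gata4 lay between 20.6 and 25.8 FPKM and Hand2 between 29.5 and 38.7 FPKM. Nkx2-5 did not exceed 0.0558 FPKM there, and Tbx3, Tbx5, Hand1 and Irx4 were at 0 in all 12 libraries. The defining sarcomere genes of a cardiomyocyte were thus absent or nearly absent from these libraries, and the cells are called here by their label only. In such bulk libraries, fewer cells of a type and less RNA per cell cannot be told apart.

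The 6 libraries held 21337922 to 28462232 counts. FK866 + NR replicate 1 stood apart. In it 389 genes were over 5 times as high as in any other HL-1 library, together 0.169% of its counts, while each of the other 11 libraries had 0 or 1 such gene. Genes of neurons and glia were among them, and a list of 16 such genes, chosen after the data were seen, summed to 36.9 FPKM in it and to at most 0.443 FPKM elsewhere. Lyz2, a macrophage gene, stood at 7.16 FPKM there and at 0 in the other FK866 + NR libraries, as did Hbb-bs, a globin, at 2.19 FPKM. The groups also differed by gene length. The median log2 fold change went from -0.15 in the shortest sixth of genes to 0.18 in the longest, against 0.01 over all genes tested, and this trend moves with each list of short or long genes described here. Its part in those results was not tested beyond a fit with length and GC content offsets, whose values are given where they end the call of a gene named here.

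**Figure D1:**
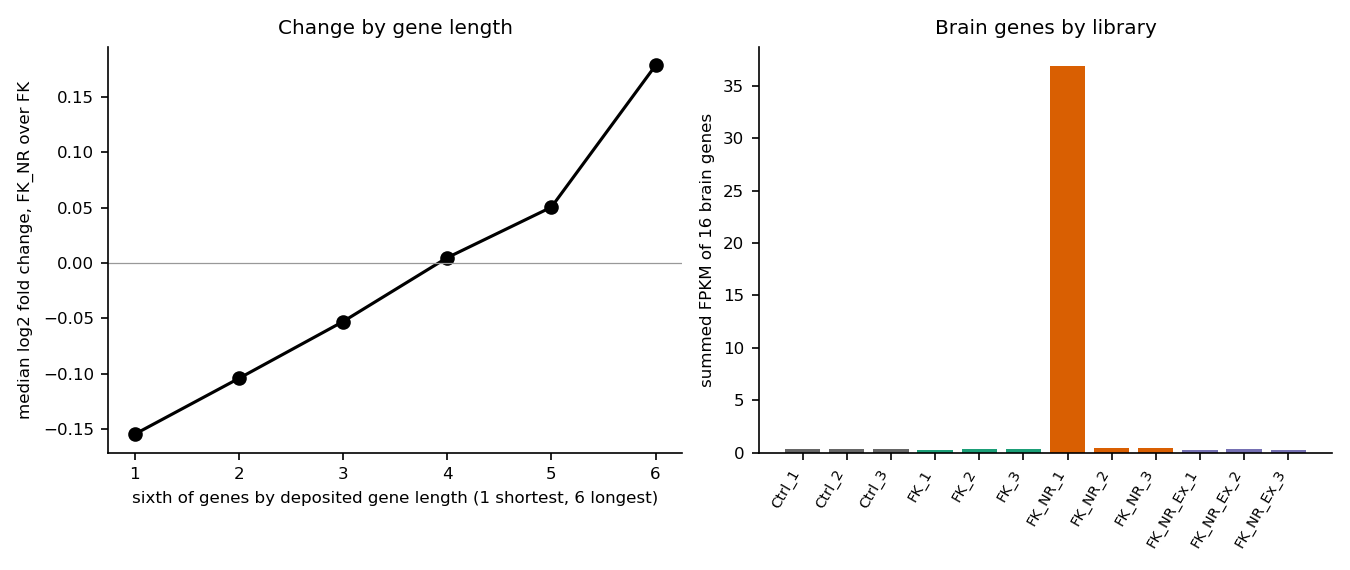
Left, median log2 fold change (FK866 + NR over FK866) of genes in 6 classes of the deposited gene length, from the shortest (1) to the longest (6). Right, summed FPKM of 16 brain genes in each of the 12 HL-1 libraries, drawn as bars from 0. The medians climb from -0.15 to 0.18, and FK866 + NR replicate 1 alone stands high, at 36.9 FPKM.

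Of 14760 genes tested, 710 (4.81%) were called between FK866 + NR and FK866. A gene is called here at an adjusted p-value under 0.01 and a change of over 1.5-fold. NR-treated cells were higher for 412 genes (2.79%) and lower for 298 (2.02%), and 118 and 90 of these changed over 2-fold. Protein-coding genes made up 360 of the higher and 267 of the lower genes. Without FK866 + NR replicate 1 the calls numbered 317 higher (2.11%) and 267 lower (1.78%), and with length and GC offsets 392 higher (2.66%) and 262 lower (1.78%). The groups of 3 did not overlap for 42.8% of all genes tested.

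**Figure D2:**
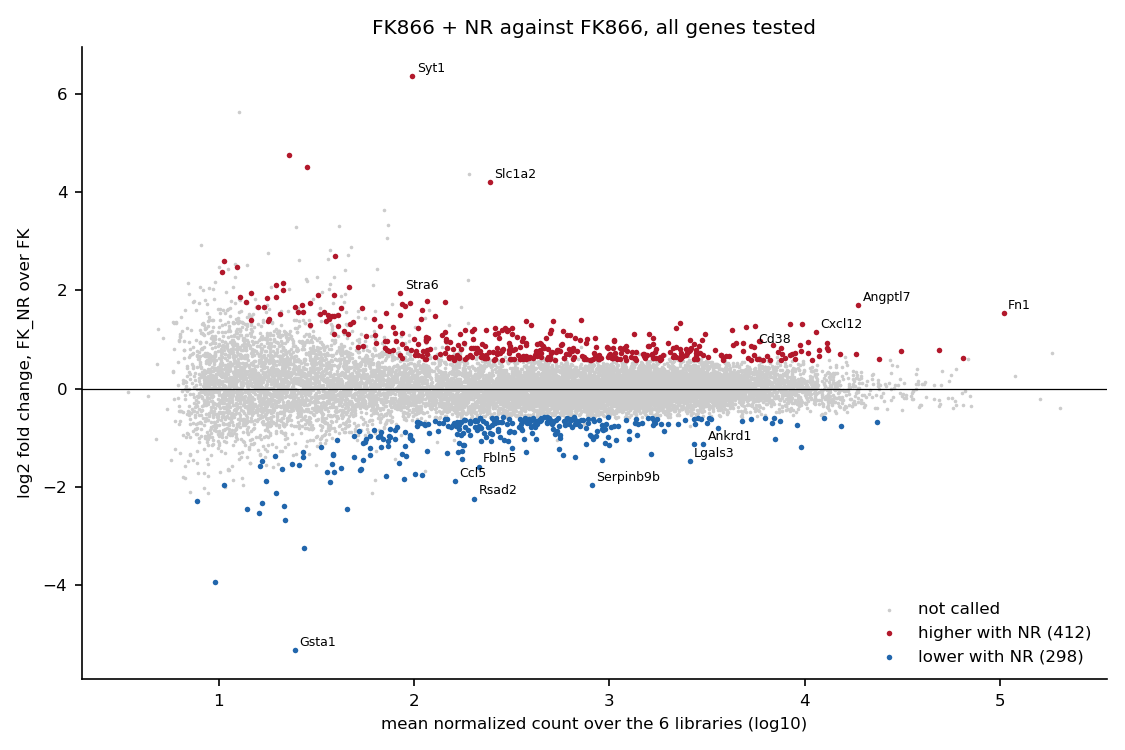
Log2 fold change (FK866 + NR over FK866) of each gene tested against its mean normalized count over the 6 libraries, on a log10 axis, with called genes in red (412 higher with NR) and blue (298 lower with NR). Rsad2 and Serpinb9b lead the well-counted lower genes and Fn1 and Angptl7 stand out at high counts, while Syt1 and Slc1a2 rest on FK866 + NR replicate 1.

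Angptl7, an angiopoietin-like secreted protein (ENSMUSG00000028989, chromosome 4, 148495183 to 148500460), had TMM-normalized counts of 8785, 8408 and 9379 in the FK866 libraries and 28012, 29672 and 28807 with NR (log2 fold change 1.70, SE 0.09, adjusted p = 1.45e-08). The groups were far apart, at 8857 ± 489.6 and 28830.1 ± 830.2 (mean ± SD, n = 3 each), and untreated cells lay at 34054, 35631 and 35584. Fn1, which encodes fibronectin (ENSMUSG00000026193, chromosome 1, 71585520 to 71653200), rose from 49495, 44237 and 67204 to 169837, 149250 and 149137 (log2 fold change 1.54, SE 0.14, adjusted p = 2.69e-06). Fn1 was among the most abundant transcripts of these cells and its untreated libraries lay between the treated groups, at 126441, 107557 and 94760.1. Stra6, a receptor that carries retinol into cells, had 30.2, 26.9 and 47.3 with FK866 and 136, 133 and 138 with NR (log2 fold change 1.95, SE 0.21, adjusted p = 1.36e-05). Adam12, a membrane-bound metalloprotease, rose from 38.4, 32.5 and 57.6 to 138, 153 and 123 (log2 fold change 1.67). Map7, a microtubule-associated protein, and Gabra3, a subunit of the GABA-A receptor, also rose, with log2 fold changes of 1.49 and 1.47.

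The rule for named genes also picked brain-expressed genes whose level was highest in FK866 + NR replicate 1. Slc1a2, a glutamate transporter of astrocytes, had 18.6, 11.2 and 43.2 in FK866 and 1290.0, 46.7 and 52.5 with NR, so that 1 library carried its log2 fold change of 4.20. The call of Slc1a2 was lost without FK866 replicate 1, FK866 replicate 2 or FK866 + NR replicate 1 (log2 fold changes 1.01 to 4.04), with a filter at an average count over 5, in the fit of only the 6 libraries compared and with the replicate block. The call of Psd3 was lost without FK866 replicate 1, FK866 replicate 2 or FK866 + NR replicate 1 (log2 fold changes 0.93 to 1.75), with a filter at an average count over 5, in the fit of only the 6 libraries compared and with the replicate block. The call of Lingo1 was lost without FK866 replicate 1 or FK866 + NR replicate 1 (log2 fold changes 1.31 to 1.52). The call of Disp2 was lost without FK866 replicate 1, FK866 replicate 2 or FK866 + NR replicate 1 (log2 fold changes 1.07 to 1.59) and in the fit of only the 6 libraries compared. Sez6l and Cacnb4, a calcium channel subunit, were 1.71 and 2.14 times as high in FK866 + NR replicate 1 as in the mean of the other two, and both kept their calls without it, at log2 fold changes of 1.47 and 1.28. Syt1, a synaptic vesicle protein named after its value was seen, had the largest fitted change (6.37) with counts of 568, 12.5 and 2.77 in the FK866 + NR libraries and 1.16, 0 and 5.14 in FK866. The call of Syt1 was lost without FK866 replicate 1, FK866 replicate 2, FK866 replicate 3 or FK866 + NR replicate 1 (log2 fold changes 1.68 to 8.10), with a filter at an average count over 5 and with the replicate block.

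On the lower side, Rsad2, the antiviral enzyme viperin (ENSMUSG00000020641, chromosome 12, 26442746 to 26456452), had 350.0, 308 and 351 normalized counts with FK866 and 76.2, 65 and 71.9 with NR (log2 fold change -2.24, SE 0.14, adjusted p = 6.97e-08). Its untreated libraries lay at 65.7, 62.3 and 57.5, near the NR level. Serpinb9b, a serine protease inhibitor (ENSMUSG00000021403, chromosome 13, 33027416 to 33041884), fell from 1226, 1329.5 and 1339.5 to 292, 336 and 361 (log2 fold change -1.97, SE 0.09, adjusted p = 5.12e-09). Ccl5, a chemokine that attracts T cells, fell from 245, 282 and 236 to 54.5, 71.8 and 79.3 (log2 fold change -1.88, SE 0.17, adjusted p = 3.22e-06). None of these groups overlapped, which the rule for named genes required. Lgals3, the lectin galectin-3, was far more abundant and fell from 3869, 4254 and 3305 to 1353, 1264 and 1491 (log2 fold change -1.47, SE 0.09). Fbln5, an elastic fiber protein, fell from 349, 327 and 294 to 89.5, 100.3 and 130.0 (log2 fold change -1.59). The same direction held for Phldb3 (-1.75), Dusp8 (-1.74), Fam71f1 (-1.65) and Krt80 (-1.51), among which Dusp8 is a phosphatase of MAP kinases and Krt80 a keratin.

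**Figure D3:**
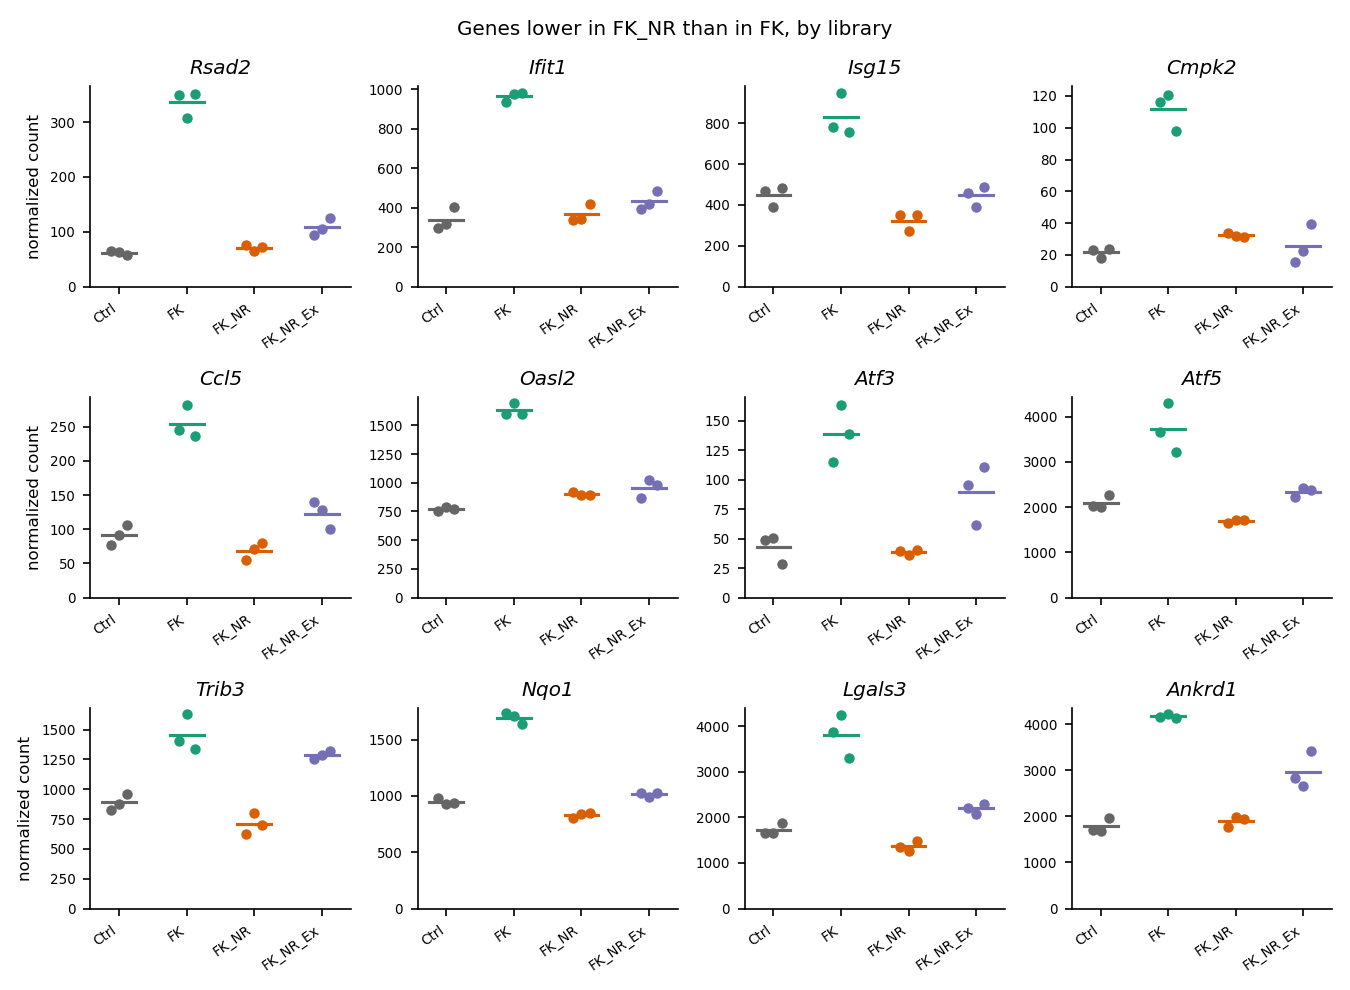
TMM-normalized counts of 12 genes called lower with NR in each HL-1 library (points) and the mean of each group of 3 (lines), with axes from 0. In each panel the FK866 points lie above all FK866 + NR points, as for Rsad2 at 350.0, 308 and 351 against 76.2, 65 and 71.9.

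Interferon-stimulated genes were the list with the lowest median. These genes encode antiviral effectors, sensors and ubiquitin-like modifiers that cells switch on through STAT and IRF factors. Of 33 members tested, 10 fell and 0 rose, while 2.02% and 2.79% of all genes tested did. These shares are the measure for the calls of every list. Of the 33, 32 had a negative log2 fold change, and the list's median was -0.46 against 0.01 over all genes. Ifit1, which binds foreign RNA, fell from 936, 978 and 981 to 338, 343 and 418 (log2 fold change -1.39, SE 0.12, adjusted p = 1.28e-06), and untreated cells had 295, 319 and 405. Isg15, a ubiquitin-like protein, fell from 781, 948 and 758 to 349.7, 272 and 348 (log2 fold change -1.36, SE 0.13, adjusted p = 3.34e-06), with 467, 388 and 485 in untreated cells. Oasl2, of the oligoadenylate synthetase family, fell from 1600.2, 1699 and 1601 to 922, 897 and 892 (log2 fold change -0.85), with 752, 790.4 and 768 untreated. Other members that fell were Ifit3 (-1.65), Mx2 (-1.56), Gbp3 (-1.37) and Xaf1 (-0.89), of which Mx2 is a dynamin-like GTPase and Gbp3 a guanylate-binding protein. The call of Xaf1 was lost without FK866 + NR replicate 2 (log2 fold change -0.81, adjusted p = 0.0114). Cmpk2, a mitochondrial nucleotide kinase that neighbors Rsad2 but is not on the list, fell from 116, 121 and 97.7 to 33.9, 31.9 and 31.3 (log2 fold change -1.78). The list kept 10 lower calls without FK866 + NR replicate 1 and 9 with length and GC offsets. With NR and Ex527 together, Rsad2 had 93.4, 105 and 126, Ifit1 394, 419.7 and 484 and Isg15 460.0, 391 and 489.6 normalized counts. Against FK866 + NR those were log2 fold changes of 0.61, 0.23 and 0.46, none of them called.

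Interferon-stimulated response elements are bound by STAT and IRF complexes, and a core of their letters, GAAANNGAAA, was looked for on both strands of the 250 bases before each RefSeq start (GRCm38.p6). It was present in 936 of 27025 genes with a RefSeq promoter (3.46%) and in 3.22% of the 10240 tested genes that matched one by symbol. Of the interferon genes called lower, 9 matched a promoter and 6 of those held the letters (66.7%). Of the 19 other tested members with a promoter, 6 held them (31.6%). The stretches around the match nearest the start are shown for 5 of the 6 genes called lower that held the letters. They run 5′ to 3′ on the strand of the gene, with each match in capitals. Rsad2 and the gene not shown had 1 match each, and another RefSeq start of Gbp3 had 0. TTTCNNTTTC is the same motif on the other strand, and in Isg15 3 matches overlap. They lie at chr4:156200850-156200909 (- strand) for Isg15, chr19:34640779-34640838 (+ strand) for Ifit1, chr19:34583373-34583441 (+ strand) for Ifit3, chr3:142559980-142560039 (+ strand) for Gbp3 and chr12:26456538-26456597 (- strand) for Rsad2.
Isg15: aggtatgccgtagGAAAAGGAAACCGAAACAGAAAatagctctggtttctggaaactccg
Ifit1: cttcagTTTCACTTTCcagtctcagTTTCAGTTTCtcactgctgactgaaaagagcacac
Ifit3: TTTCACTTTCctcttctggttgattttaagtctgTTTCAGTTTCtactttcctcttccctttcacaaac
Gbp3: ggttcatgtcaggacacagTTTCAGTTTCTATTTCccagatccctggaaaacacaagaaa
Rsad2: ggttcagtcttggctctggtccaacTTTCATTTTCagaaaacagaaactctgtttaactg

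Targets of the integrated stress response had the next lowest median. In this response phosphorylated eIF2α slows translation while the factor ATF4 induces genes of amino acid supply and stress. Of 48 targets tested, 11 fell and 1 rose (2.02% and 2.79% of all genes did), and the median log2 fold change was -0.43. At an adjusted p under 0.01 and any fold, 32 were lower (7.97% of all genes were). Atf3, a stress-induced repressor of the same factor family, fell from 115, 163 and 139 to 39.9, 36.5 and 40.6 (log2 fold change -1.83, SE 0.25, adjusted p = 0.000103). Atf5 fell from 3671, 4299.6 and 3217 to 1651, 1724 and 1720.1 (log2 fold change -1.13, SE 0.09, adjusted p = 8.92e-07), and its untreated libraries had 2033, 2007 and 2266. Trib3, a pseudokinase induced by ATF4, fell from 1406, 1631 and 1341 to 627, 798 and 703 (log2 fold change -1.04, SE 0.09). Stc2, a secreted glycoprotein, fell as well (-0.89). Asns, the enzyme that makes asparagine, had 9249.8, 9252 and 9079.8 with FK866 and 5433, 5882 and 6055 with NR (log2 fold change -0.67). Chac1, which degrades glutathione, and Ppp1r15a, a phosphatase subunit that reverses the eIF2α mark, fell by 0.65 and 0.64 on the log2 scale. The call of Ppp1r15a was lost without FK866 replicate 2 (log2 fold change -0.54, adjusted p = 0.000472) and with length and GC offsets (-0.54). The exception was Ddit4, an mTORC1 inhibitor that hypoxia also induces, which rose from 761, 990.4 and 774 to 1693, 2064 and 1703 (log2 fold change 1.11, SE 0.10, adjusted p = 2.44e-06). With length and GC offsets 7 members were called lower, and 36 were lower at an adjusted p under 0.01 and any fold. The share of all genes at any fold was not counted in that fit. Under that fit Asns had a log2 fold change of -0.58 and Chac1 of -0.50, both short of the 1.5-fold minimum.

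The ATF4 element was searched as TGATGNAAN on both strands of the same windows. It occurred in 2.42% of tested genes with a promoter. Of the targets with a promoter, it was in 3 of the 9 called lower and in 9 of the 29 other tested ones. As shares these were 33.3% and 31%. The matches of Asns (chr6:7693210-7693257 (- strand)), Atf3 (chr1:191183411-191183469 (- strand)) and Chac1 (chr2:119351023-119351081 (+ strand)) are shown in capitals, the last 2 on the opposite strand of the gene.
Asns: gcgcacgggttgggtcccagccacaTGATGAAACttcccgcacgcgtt
Atf3: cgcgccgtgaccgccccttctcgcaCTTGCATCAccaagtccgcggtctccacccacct
Chac1: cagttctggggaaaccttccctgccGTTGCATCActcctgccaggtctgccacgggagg

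Other stress lists moved less. Antioxidant and glutathione genes, many of them targets of NRF2, had 0 higher and 5 lower of 38 tested (2.79% and 2.02% of all genes). Their median was -0.20. Nqo1, a quinone reductase, fell from 1734, 1710.0 and 1638 to 805, 838 and 845 (log2 fold change -1.03, SE 0.06, adjusted p = 3.33e-08) and had 979.6, 925 and 937 untreated. Ftl1, the ferritin light chain, fell from 20242, 21932 and 15749.8 to 11692, 11126 and 11373 (log2 fold change -0.76), though related ferritin copies may share its reads. Osgin1 and Srxn1, which repairs peroxiredoxins, also fell (-0.63 and -0.60). The call of Osgin1 was lost with length and GC offsets (log2 fold change -0.52). The call of Srxn1 was lost without FK866 replicate 2 or FK866 + NR replicate 1 (log2 fold changes -0.57 to -0.53) and with length and GC offsets (-0.50). Gsta1, a glutathione transferase with close relatives, had 32, 82 and 15 raw counts in FK866 and 0, 1 and 2 with NR, a ratio of 44 (95% interval 14.7 to 216, counting error only). The NRF2 motif letters TGACNNNGC, present in 13.9% of tested promoters, were in 0 of the 5 windows of these genes. Of the 27 other tested members with a promoter, 7 held them (25.9%). ER chaperones had 0 higher and 1 lower of 26 tested, median 0.02, and the lower gene was Herpud1, a membrane protein of ER-associated degradation (-0.66). The call of Herpud1 was lost with length and GC offsets (log2 fold change -0.55). Heat shock chaperones had 0 higher and 1 lower of 24 tested, median -0.20, the lower one being Cryab, a small heat shock protein that fell from 1079, 1089 and 977 to 532, 522 and 575.

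Immediate early genes, which growth factors and stress switch on within minutes, had 1 higher and 5 lower of 35 tested, median -0.23. Of all genes tested, 2.79% were called higher and 2.02% lower. Klf4, a pluripotency and differentiation factor, fell from 1206, 1349.6 and 1328 to 592, 567 and 633 (log2 fold change -1.11, SE 0.08, adjusted p = 6.52e-07). Cyr61, a matricellular protein, fell from 722, 784 and 731 to 339, 369 and 409 (adjusted p = 1.96e-06). Jund, a subunit of AP-1, Dusp1, a MAP kinase phosphatase, and Myc fell with log2 fold changes of -0.92, -0.68 and -0.64, while Etv5, an ETS factor induced by growth factor signaling, rose by 0.73. The call of Dusp1 was lost with length and GC offsets (log2 fold change -0.58). The call of Myc was lost with length and GC offsets (log2 fold change -0.53). The list thus had 3 lower calls with the offsets. Ankrd1, which responds to mechanical stress in muscle cells and is counted here with the Z-disc genes, fell from 4150.4, 4221 and 4137 to 1779, 1986 and 1932 (log2 fold change -1.13, SE 0.09, adjusted p = 8.5e-07). Its untreated libraries had 1701, 1679 and 1968, and with Ex527 added it had 2837, 2658 and 3414, a called log2 fold change of 0.64 against FK866 + NR.

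Targets of p53 went both ways, with 3 higher and 3 lower of 34 tested (2.79% and 2.02% of all genes), median -0.02. Sesn1, a sestrin that restrains mTORC1, rose from 2115, 1828 and 1721 to 3404, 3681 and 3585 (log2 fold change 0.91, SE 0.07, adjusted p = 1.04e-06). Gadd45b fell from 231, 263 and 219 to 93.2, 85.5 and 112 (log2 fold change -1.29), and Gadd45a and Bax, a pore-forming apoptosis factor, fell by 0.72 and 0.72 on the log2 scale. Trp53inp1 and Eda2r, a receptor of the TNF receptor family, rose by 0.59 and 0.59, close to the minimum fold. The call of Gadd45a was lost with length and GC offsets (log2 fold change -0.57). The call of Bax was lost with length and GC offsets (log2 fold change -0.56). The call of Trp53inp1 was lost without FK866 replicate 2, FK866 + NR replicate 1 or FK866 + NR replicate 3 (log2 fold changes 0.54 to 0.58), with length and GC offsets (0.45), with upper quartile scaling, with a filter at an average count over 5 and in the fit of only the 6 libraries compared. The call of Eda2r was lost without FK866 replicate 1, FK866 replicate 2, FK866 replicate 3, FK866 + NR replicate 1, FK866 + NR replicate 2 or FK866 + NR replicate 3 (log2 fold changes 0.48 to 0.68), with length and GC offsets (0.50, adjusted p = 0.0191), with upper quartile scaling, with a filter at an average count over 5, in the fit of only the 6 libraries compared, with DESeq2 on those 6 and with the replicate block. With the offsets the list had 3 higher and 1 lower calls. Among apoptosis regulators (1 higher and 1 lower of 26 tested, median 0.05), Bax was the lower gene and Bmf, a BH3-only factor, the higher one (0.69). The call of Bmf was lost without FK866 replicate 1, FK866 replicate 2, FK866 replicate 3, FK866 + NR replicate 1 or FK866 + NR replicate 2 (log2 fold changes 0.62 to 0.70). Cell cycle and DNA replication genes had 0 higher and 0 lower of 57 tested, median -0.00, and 5 and 2 passed the adjusted p at any fold (7.33% of all genes passed as higher and 7.97% as lower). Cyclin-dependent kinase inhibitors had 0 higher and 0 lower of 9 tested, median 0.22.

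**Figure D4:**
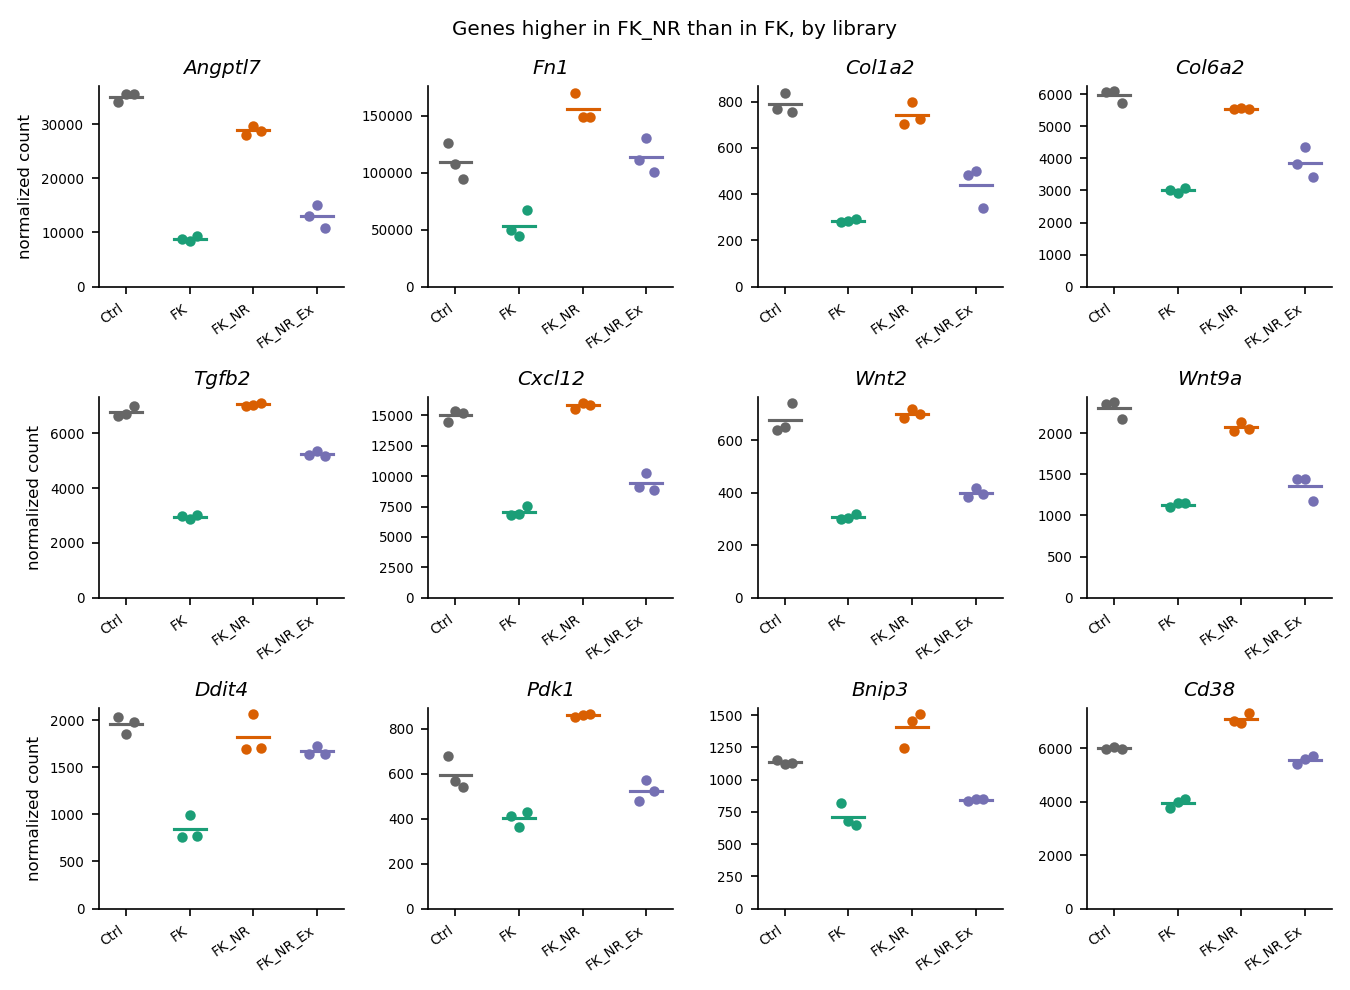
TMM-normalized counts of 12 genes called higher with NR in each HL-1 library (points) and the mean of each group of 3 (lines), with axes from 0. The FK866 + NR points lie above every FK866 point in each panel, as for Tgfb2 at 7019, 7047 and 7113 against 2964, 2873 and 3006.

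Of the 36 gene lists, that of the extracellular matrix had the most genes called higher by count (10 of 41 tested). Targets of hypoxia-inducible factor (6 of 24) and WNT genes (6 of 26) had similar shares. Collagens, laminins and fibronectin had 10 higher and 2 lower of 41 tested (2.79% and 2.02% of all genes), median 0.21. Col1a2, the second chain of type I collagen (ENSMUSG00000029661, chromosome 6, 4504814 to 4541544), rose from 281, 282 and 291 to 701, 796 and 724 (log2 fold change 1.38, SE 0.12, adjusted p = 1.99e-06), with 769, 838 and 756 untreated. Col6a2, a chain of the beaded filaments of collagen VI, rose from 2999, 2926 and 3083 to 5541, 5569 and 5544 (log2 fold change 0.89, SE 0.07, adjusted p = 1.2e-06). Col18a1, of basement membranes, and Lama4, a laminin chain, rose by 0.94 and 0.81. Hspg2, the basement membrane proteoglycan perlecan, rose from 6538, 5172 and 8123 to 13925, 11433 and 11577 (log2 fold change 0.90), and Col11a1 rose by 0.79. The call of Hspg2 was lost without FK866 replicate 1 or FK866 + NR replicate 1 (log2 fold changes 0.80 to 0.88). The call of Col11a1 was lost without FK866 replicate 2, FK866 replicate 3, FK866 + NR replicate 1, FK866 + NR replicate 2 or FK866 + NR replicate 3 (log2 fold changes 0.62 to 0.84), with length and GC offsets (0.59, adjusted p = 0.0147), with a filter at an average count over 5, in the fit of only the 6 libraries compared and with DESeq2 on those 6. Lamb3, a laminin chain of epithelial basement membranes, fell instead, from 32.6, 39.2 and 33.9 to 14.5, 14.8 and 7.37 (-1.54). The call of Lamb3 was lost without FK866 replicate 1, FK866 replicate 2 or FK866 + NR replicate 3 (log2 fold changes -1.60 to -1.26). These are mostly long genes, and the list had 8 higher calls with length and GC offsets and 8 without FK866 + NR replicate 1. Under the offsets Fn1 kept a log2 fold change of 1.39 and Col1a2 of 1.17. The list of 8 fibroblast markers shares Col1a1, Col1a2, Col3a1, Dcn, Lum and Postn with the matrix list, so it is not a separate observation. Of the 8, 5 were tested and 3 called higher. The sum of all 8 lay between 291 and 303 FPKM in FK866 and 416 and 422 with NR. Col3a1 took 191 to 202 and 296 to 303 FPKM of it. Dcn lay at 24.3, 23.1 and 26.2 FPKM with FK866 and at 24.1, 24.3 and 25.8 FPKM with NR. Lum and Postn lay at or near 0 and Tcf21 at 0. The part of these markers in the result was not tested.

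Integrins, the receptors for these proteins, had 2 higher and 1 lower of 19 tested, median 0.29. Itgb7, a chain of leukocyte integrins, fell from 1247, 1464 and 1314 to 483, 509.6 and 480.3 (log2 fold change -1.45, SE 0.07, adjusted p = 8.48e-09), while Itgb8 and Itgav, the chains of a receptor that activates latent TGF-beta, rose by 0.96 and 0.59. The call of Itgb8 was lost without FK866 replicate 1, FK866 replicate 2, FK866 + NR replicate 1 or FK866 + NR replicate 3 (log2 fold changes 0.76 to 1.05) and in the fit of only the 6 libraries compared. The call of Itgav was lost without FK866 replicate 2 or FK866 + NR replicate 1 (log2 fold changes 0.46 to 0.58), with length and GC offsets (0.42), with upper quartile scaling, with no filter on low counts, with a filter at an average count over 5 and in the fit of only the 6 libraries compared. The TGF-beta and remodelling list had 2 higher and 1 lower of 32 tested, median 0.04. Tgfb2 rose from 2964, 2873 and 3006 to 7019, 7047 and 7113 (log2 fold change 1.26, SE 0.05, adjusted p = 2.3e-09), with 6629, 6706 and 7005 in untreated cells, and Tgfb3 rose from 2870.1, 3217 and 3076 to 5062, 4832 and 4694 (log2 fold change 0.67). Both are ligands of the TGF-beta receptors. Id3, a target of BMP signaling, fell by 0.68 on the log2 scale. The call of Id3 was lost with length and GC offsets (log2 fold change -0.54).

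WNT ligands, receptors and effectors had 6 higher and 0 lower of 26 tested (2.79% and 2.02% of all genes), median 0.24. Wnt2 rose from 299, 303 and 319.7 to 685, 717 and 699.6 (log2 fold change 1.19, SE 0.08, adjusted p = 1.54e-07), with 638, 651 and 742 untreated. Wnt9a rose from 1100.1, 1146 and 1150.4 to 2034, 2142 and 2057 (log2 fold change 0.88, SE 0.08, adjusted p = 1.99e-06). The ligands Wnt11, Wnt5a and Wnt4 rose by 0.91, 0.82 and 0.68 and the coreceptor Lrp6 by 0.76. The call of Lrp6 was lost with length and GC offsets (log2 fold change 0.53). With Ex527 added, Wnt2 had 382, 416 and 395 and Wnt9a 1446, 1444 and 1176 normalized counts, log2 fold changes of -0.82 and -0.62 against FK866 + NR, both called. Growth factor genes had 4 higher and 5 lower of 31 tested, median -0.08, and ligands and receptors of the PDGF family differed. The receptor Pdgfra rose from 404, 317 and 447 to 858, 799 and 823 (log2 fold change 1.09, SE 0.12, adjusted p = 1.26e-05), while the ligands Pdgfb and Pdgfa fell, from 238, 251 and 257 to 102, 123 and 111 for Pdgfb (log2 fold change -1.15) and by 0.66 on the log2 scale for Pdgfa. The receptors Egfr and Flt1 rose by 0.79 and 0.64, and Erbb3 and the ligand Fgf18 fell by 0.78 and 0.68. The call of Pdgfa was lost without FK866 replicate 1, FK866 replicate 2, FK866 + NR replicate 1, FK866 + NR replicate 2 or FK866 + NR replicate 3 (log2 fold changes -0.67 to -0.59) and with length and GC offsets (-0.56). The call of Fgf18 was lost with length and GC offsets (log2 fold change -0.53). The call of Flt1 was lost without FK866 replicate 2 (log2 fold change 0.57, adjusted p = 0.000109) and with length and GC offsets (0.43). The call of Erbb3 was lost without FK866 replicate 1, FK866 replicate 2, FK866 + NR replicate 1 or FK866 + NR replicate 3 (log2 fold changes -0.81 to -0.63), in the fit of only the 6 libraries compared and with DESeq2 on those 6. Without FK866 + NR replicate 1 this list had 3 higher and 2 lower calls.

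Inflammatory genes outside the interferon list had 5 higher and 1 lower of 25 tested (2.79% and 2.02% of all genes), median 0.12. Cxcl12, a chemokine made by stromal cells (ENSMUSG00000061353, chromosome 6, 117168535 to 117181367), rose from 6817, 6897 and 7547 to 15535, 16050.1 and 15893 (log2 fold change 1.16, SE 0.06, adjusted p = 2.43e-08). Its level with Ex527 was 9080.4, 10290.3 and 8841, a called log2 fold change of -0.75 against FK866 + NR, and untreated cells had 14442, 15342 and 15223. Cx3cl1, a membrane-bound chemokine, and Il1r1, the receptor of interleukin 1, rose by 0.99 and 0.98. Ptgs1, a cyclooxygenase, and Csf1, which sustains macrophages, rose by 0.66 and 0.59. The call of Csf1 was lost without FK866 replicate 2 or FK866 + NR replicate 1 (log2 fold changes 0.55 to 0.58), with upper quartile scaling, with a filter at an average count over 5 and in the fit of only the 6 libraries compared. Ccl5 was the member that fell.

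Targets of hypoxia-inducible factor (HIF) had 6 higher and 0 lower of 24 tested (2.79% and 2.02% of all genes), median 0.41. At an adjusted p under 0.01 and any fold, 13 members were higher (7.33% of all genes were). Pdk1, the kinase that inactivates pyruvate dehydrogenase, rose from 412, 364 and 432 to 853, 863 and 867 (log2 fold change 1.10, SE 0.10, adjusted p = 2.21e-06). The 3 NR libraries lay within a narrow range, and with Ex527 the gene had 478, 571 and 524, a called log2 fold change of -0.71. Bnip3, a mitophagy receptor, rose from 815, 676 and 648 to 1248, 1456 and 1513 (log2 fold change 0.98, SE 0.09, adjusted p = 2.59e-06), and Ak4, a mitochondrial adenylate kinase, from 1019, 967 and 1109 to 1577, 1793 and 1796 (log2 fold change 0.74). Epas1, which encodes HIF-2α, and Egln3, an oxygen-dependent hydroxylase of HIF, rose by 0.68 and 0.64, and Ddit4 is the sixth. The list kept 6 higher calls without FK866 + NR replicate 1 and 6 with the offsets. Glycolysis genes as a whole had 1 higher and 1 lower of 34 tested, median 0.06. Aldoc, an aldolase, rose by 0.79 and Arrdc4, an arrestin-like protein that limits glucose uptake, fell from 463, 443 and 422 to 159, 213 and 202 (log2 fold change -1.21). The TCA cycle and shuttle list had 1 higher and 0 lower of 33 tested, median -0.10, with Pdk1 as the higher gene, and fatty acid oxidation genes had 0 higher and 0 lower of 27 tested, median -0.02. In cholesterol and fatty acid synthesis, with 1 higher and 1 lower of 35 tested, median -0.03, the elongase Elovl6 rose by 0.66 and Mvd, of the mevalonate pathway, fell by 0.59. The call of Elovl6 was lost without FK866 replicate 2 (log2 fold change 0.58, adjusted p = 4.52e-05). The call of Mvd was lost without FK866 replicate 2, FK866 + NR replicate 1 or FK866 + NR replicate 3 (log2 fold changes -0.55 to -0.46), with length and GC offsets (-0.44), with DESeq2 size factors, without mitochondrially encoded genes, with DESeq2 on all 12 libraries and with the replicate block.

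Genes of the mitochondrial chromosome, mRNAs and others, took 1.70 to 1.90% of all counts in FK866 libraries and 2.15 to 2.73% with NR. The groups did not overlap. Untreated libraries lay below both, at 1.27, 1.53 and 1.39%, and those with Ex527 added lay at 2.15, 2.21 and 1.22%. Of the 13 mitochondrially encoded mRNAs, 2 rose and the median log2 fold change was 0.44. The genome of mitochondria encodes subunits of complexes I, III, IV and V. Of complex I, mt-Nd5 rose from 38799.5, 28271 and 39897 to 66871, 65399.6 and 51879.5 (log2 fold change 0.78, SE 0.19, adjusted p = 0.00741) and mt-Nd4l from 162, 137 and 253 to 408, 455 and 389 (log2 fold change 1.18, SE 0.23, adjusted p = 0.00183). The call of mt-Nd5 was lost without FK866 replicate 1, FK866 replicate 2, FK866 + NR replicate 1 or FK866 + NR replicate 2 (log2 fold changes 0.65 to 0.84), with a filter at an average count over 5 and with the replicate block. The call of mt-Nd4l was lost without FK866 replicate 1 (log2 fold change 1.09, adjusted p = 0.0128). Its other subunits had log2 fold changes of 0.26 (mt-Nd1), 0.36 (mt-Nd2), -0.23 (mt-Nd3), 0.58 (mt-Nd4) and 0.44 (mt-Nd6), none called. Of complex IV, mt-Co1 had 151064, 133566 and 133015 and 257140, 236621 and 195923 (log2 fold change 0.72, adjusted p = 0.0174), and was not called. mt-Co2 and mt-Co3 had log2 fold changes of 0.16 and 0.01. Of complex III, mt-Cytb had 0.59 (adjusted p = 0.0229), and of the ATP synthase, mt-Atp6 and mt-Atp8 had 0.45 and 0.03. mt-Co1 and mt-Cytb were called when only the 6 libraries compared were fitted (adjusted p = 0.000835 and 0.00179, edgeR) and with DESeq2 on those 6, and also in the edgeR fit of all 12 libraries with no filter on low counts (adjusted p = 1.6e-06 and 1.35e-05). Neighboring mitochondrial genes overlap or lie on opposite strands, and the strand setting of the counting is not stated, so reads of mt-Nd5 and mt-Nd6 may not be told apart.

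Nuclear genes of the respiratory chain and ATP synthase had 0 higher and 1 lower of 77 tested, median -0.23. Of the 77, 73 had a negative value, while the median over all genes tested was 0.01. The called gene was Cox6a2, the muscle form of a complex IV subunit, at only 30.2, 34.7 and 31.9 counts with FK866 and 8.47, 6.84 and 14.7 with NR. The call of Cox6a2 was lost without FK866 + NR replicate 2 (log2 fold change -1.43, adjusted p = 0.0117). Cytosolic ribosomal proteins had 0 higher and 1 lower of 76 tested, median -0.28 and mitochondrial ribosomal proteins 0 higher and 1 lower of 75 tested, median -0.27. These are short genes, and with length and GC offsets the 3 medians were -0.12, -0.17 and -0.20. At any fold, 19 cytosolic and 24 mitochondrial ribosomal genes were lower at an adjusted p under 0.01 (7.97% of all genes were). Without FK866 + NR replicate 1 these numbers were 5 and 7, with medians of -0.24 and -0.23. With the offsets they were 21 and 24. The share of all genes at any fold was not counted in those fits. Rps27a, which encodes a ubiquitin fused to a ribosomal protein, was called lower, but its groups overlapped (9230.1, 13278 and 5997 against 3383, 4011 and 6547), and it has related copies that may share its reads. The call of Rps27a was lost without FK866 replicate 1, FK866 replicate 2, FK866 + NR replicate 1 or FK866 + NR replicate 2 (log2 fold changes -1.05 to -0.70), with a filter at an average count over 5, in the fit of only the 6 libraries compared, with DESeq2 on all 12 libraries, with DESeq2 on those 6 and with the replicate block. Mrpl16 fell from 1639.7, 1688 and 1633 to 1039, 1074 and 1126. The call of Mrpl16 was lost with length and GC offsets (log2 fold change -0.51). The list for expression of the mitochondrial genome, which includes Tfam and Ppargc1a, had 0 higher and 0 lower of 32 tested, median -0.16.

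The genes that make and use NAD themselves held few called members. For NAD synthesis and NR uptake the list had 1 higher and 0 lower of 22 tested (2.79% and 2.02% of all genes), median 0.07. Nampt, the target of FK866, lay at 28.3, 26.9 and 28.4 FPKM in FK866 libraries and at 30.5, 32.4 and 33.1 FPKM with NR (log2 fold change 0.20, adjusted p = 0.0196), so the ranges did not overlap but the gene was not called. Nmrk1, a kinase that phosphorylates NR, had 357, 378 and 324 and 417, 477 and 367 normalized counts (log2 fold change 0.25, adjusted p = 0.0954). The enzymes that complete NAD from its mononucleotide, Nmnat1, Nmnat2 and Nmnat3, had 0.00, 0.48 and 0.28, and none was called. Naprt, Nadsyn1 and Afmid, of the routes from nicotinic acid and tryptophan, had 0.29, 0.01 and 0.68. Nt5e, the surface enzyme CD73, which cleaves nucleotides and can release NR from nicotinamide mononucleotide, was the called gene and rose from 205, 234 and 220.0 to 373, 406 and 427 (log2 fold change 0.87, SE 0.10, adjusted p = 2.69e-05). The nucleoside transporters Slc29a1, Slc29a2 and Slc29a3 had 0.33, -0.47 and 0.20, and Slc29a1 passed the adjusted p (0.00723) below the minimum fold. Slc12a8, Slc25a51, the mitochondrial NAD carrier, and Pnp, which splits NR, had 0.18, 0.03 and -0.19. The NAD kinases Nadk and Nadk2 had -0.01 and 0.10, the methyltransferase Nnmt -0.05, and Nt5c2, Nudt12, Nudt13 and Nnt -0.11, 0.04, -0.32 and -0.20. Nmrk2, the muscle kinase for NR, was among the 11 listed members below the count filter.

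NAD consumers had 1 higher and 1 lower of 25 tested (2.79% and 2.02% of all genes), median -0.00. Cd38, a surface NAD glycohydrolase (ENSMUSG00000029084, chromosome 5, 43868553 to 43912375), rose from 3749, 3981 and 4079 to 7016, 6957 and 7320.0 (log2 fold change 0.85, SE 0.05, adjusted p = 8.42e-08) and had 5956, 6044 and 5970.4 in untreated cells. Its relative Bst1 did not pass, with 2109.5, 2167 and 1979 and 2049.9, 2111 and 2083 (log2 fold change -0.00), and Sarm1, the axonal NAD hydrolase, had -0.29. Of the sirtuins, Sirt1 had 958, 848 and 1086 with FK866 and 736, 723 and 712 with NR (log2 fold change -0.42, adjusted p = 0.00522), short of the minimum fold, with 611, 590.1 and 581 untreated. Sirt2 likewise passed the adjusted p only (-0.44, adjusted p = 0.000116). Sirt3 to Sirt7 had 0.34, -0.19, 0.31, 0.07 and -0.04. Of the PARPs, Parp14, which interferon induces, fell from 209, 184 and 252 to 134, 116 and 150.3 (log2 fold change -0.68, SE 0.16, adjusted p = 0.0061). The call of Parp14 was lost without FK866 replicate 1, FK866 replicate 3, FK866 + NR replicate 1 or FK866 + NR replicate 2 (log2 fold changes -0.71 to -0.56), in the fit of only the 6 libraries compared and with DESeq2 on those 6. Parp1, the main PARP of DNA repair, had 5301, 5453 and 5641 and 5574, 5671 and 5608 (log2 fold change 0.04, SE 0.06), and Parp2 -0.04. Parp3 passed the adjusted p only (-0.49, adjusted p = 0.000836). Parp4, Parp6, Parp8, Parp9, Parp10, Parp11, Parp12 and Parp16 lay between -0.27 (Parp12) and 0.53 (Parp8), and Tiparp, Tnks and Tnks2 had 0.23, 0.32 and 0.13.

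Core clock and clock output genes, the subject of the heart experiments of the series, had 22 members tested and a median log2 fold change of -0.02 in these cells. Per3, a period repressor, rose from 358, 326 and 364 to 626, 530.1 and 481 (log2 fold change 0.64, SE 0.14, adjusted p = 0.00283). The call of Per3 was lost without FK866 replicate 1, FK866 replicate 2 or FK866 + NR replicate 1 (log2 fold changes 0.53 to 0.65) and with length and GC offsets (0.52). The cells were not sampled over time, so these are levels at the time of harvest.

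Lysosome and autophagy genes had 1 higher and 5 lower of 34 tested (2.79% and 2.02% of all genes), median -0.24. Ctsa, a lysosomal carboxypeptidase, fell from 4539, 4761 and 4425 to 2494, 2779.5 and 2571 (log2 fold change -0.81, SE 0.07, adjusted p = 1.21e-06), and Lamp1, the abundant lysosomal membrane protein, from 28960.1, 29697 and 28279.7 to 17354, 17937 and 18724 (log2 fold change -0.69, SE 0.07, adjusted p = 5.62e-06). Atp6v1h, a subunit of the proton pump, the sialidase Neu1 and the protease Ctsl fell by 0.66, 0.65 and 0.59, while Bnip3 rose. The call of Neu1 was lost without FK866 replicate 2 (log2 fold change -0.58, adjusted p = 0.000135) and with length and GC offsets (-0.58). The call of Ctsl was lost without FK866 replicate 2, FK866 + NR replicate 1 or FK866 + NR replicate 2 (log2 fold changes -0.58 to -0.54) and without mitochondrially encoded genes. The insulin and mTOR list had 38 members tested and a median of 0.07, with the insulin receptor substrate Irs2 higher (0.60) and the translation repressor Eif4ebp1 lower (-0.62). The call of Irs2 was lost without FK866 replicate 2, FK866 + NR replicate 1 or FK866 + NR replicate 3 (log2 fold changes 0.55 to 0.58) and with length and GC offsets (0.58). The call of Eif4ebp1 was lost without FK866 replicate 2 or FK866 + NR replicate 1 (log2 fold changes -0.56 to -0.49) and with length and GC offsets (-0.51).

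Heart muscle lists held few measurable genes. Of 43 sarcomere and Z-disc genes 21 were tested, 1 rose and 3 fell (median -0.07). Besides Ankrd1 and Cryab the lower gene was Tnnt2, cardiac troponin T, with only 20.9, 30.2 and 44.2 and 12.1, 4.56 and 5.53 counts, and the higher one was Mylk3, a myosin light chain kinase (0.72). The call of Tnnt2 was lost without FK866 + NR replicate 2 or FK866 + NR replicate 3 (log2 fold changes -1.94 to -1.88). The call of Mylk3 was lost without FK866 replicate 1, FK866 replicate 3, FK866 + NR replicate 2 or FK866 + NR replicate 3 (log2 fold changes 0.58 to 0.73), in the fit of only the 6 libraries compared and with DESeq2 on those 6. Cardiac transcription factors and atrial genes had 0 higher and 0 lower of 17 tested, median 0.19, with Gata4 among those tested and Nppa at or near 0. Among calcium, sodium and pacemaker genes (1 higher and 0 lower of 13 tested, median 0.21), the T-type calcium channel Cacna1g rose from 162, 137 and 127 to 344, 316 and 315 (log2 fold change 1.20, SE 0.18, adjusted p = 0.000184). Of 35 potassium channel genes 10 were tested, with a median of 0.56, and Kcnj8, the pore of an ATP-sensitive channel, rose from 23.3, 14.5 and 20.6 to 56.9, 50.2 and 46.1. The call of Kcnj8 was lost without FK866 replicate 2 (log2 fold change 1.22, adjusted p = 0.0109). Adrenergic and cAMP genes had 1 higher and 0 lower of 28 tested, median 0.11, with the adenylyl cyclase Adcy9 higher (0.73). The call of Adcy9 was lost without FK866 replicate 1, FK866 replicate 2, FK866 + NR replicate 1, FK866 + NR replicate 2 or FK866 + NR replicate 3 (log2 fold changes 0.61 to 0.76).

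**Figure D5:**
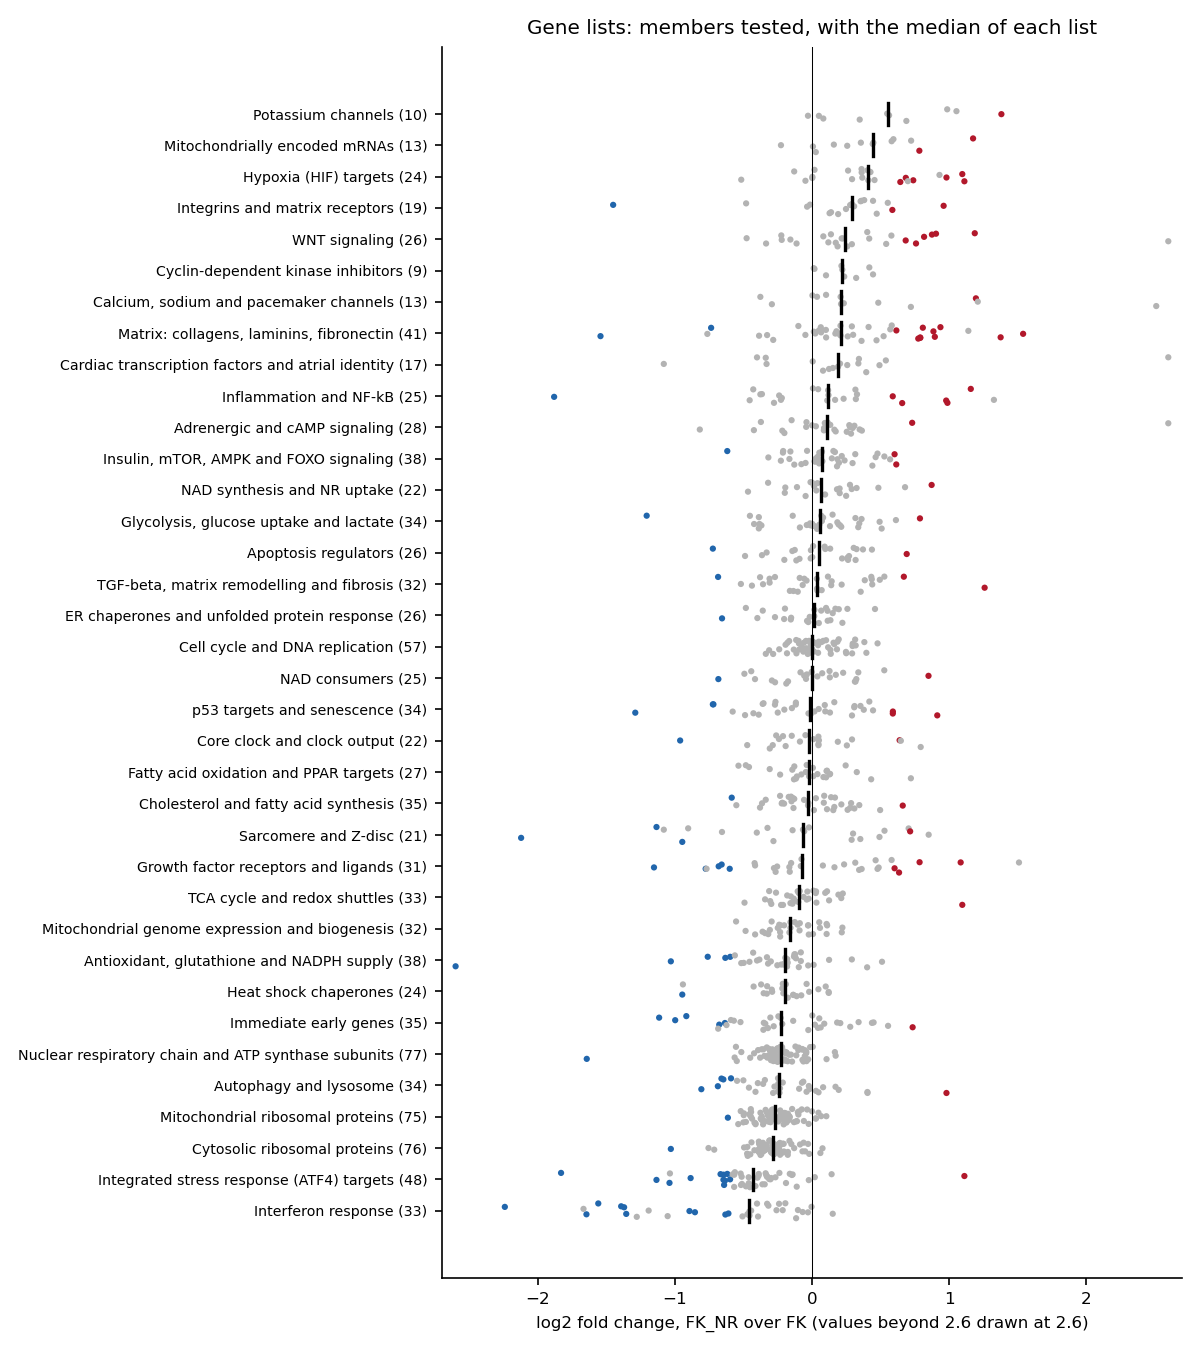
Log2 fold change (FK866 + NR over FK866) of each tested member of 36 gene lists, ordered by the list's median (black bar), with called members in red (higher) or blue (lower), the number tested in parentheses and values beyond 2.6 drawn at 2.6. Interferon genes (-0.46) and stress response targets (-0.43) have the lowest medians, and potassium channels (0.56, 10 genes), mitochondrially encoded mRNAs (0.44) and HIF targets (0.41) the highest.

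The same fit gave the other HL-1 contrasts, which share libraries with this one, so only their own values are set side by side. FK866 against untreated cells had 678 called genes (4.59%), FK866 + NR against untreated 133 (0.901%), FK866, NR and Ex527 against FK866 188 (1.27%), and the same cells against FK866 + NR 88 (0.596%). Rsad2 had log2 fold changes of 2.44 for FK866 against untreated and 0.20 for FK866 + NR against untreated. For Angptl7 these were -1.99 and -0.28, for Tgfb2 -1.20 and 0.06, and for Atf5 0.83 and -0.31. Fn1 had -1.03 and 0.51, and Hspg2 -0.03 and 0.86, so Hspg2 stood near the untreated level with FK866 alone and above it with NR. With Ex527 added, Angptl7 had 13008, 15078 and 10876 and Col1a2 483, 501 and 339.5 normalized counts, called log2 fold changes of -1.15 and -0.74 against FK866 + NR. Tgfb2 had 5202, 5357 and 5178 and Ddit4 1644, 1726 and 1643, at -0.43 and -0.12, which were not called.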

How the data were processed

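RNA of cells labelled HL-1 was sequenced in 12 libraries, 3 for each of 4 groups set by the treatment labels. Per the labels and the study's methods, poly(A) RNA was read in pairs on an Illumina platform. The submitters' processing notes name HISAT2, HISAT, TopHat2 and the mm10 build, and the strand setting of the counting is not given in the sources used here. The authors deposited whole-number counts of reads for each gene, which are not normalized, and a second table of FPKM values. The FPKM values were used to compare levels between genes and, where FPKM is given, to show the level of a gene or list in each library. They carry no TMM scaling, and no fold change or call rests on them.

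Counts of all 12 libraries were fitted with edgeR 4.0.16 (limma 3.58.1, R 4.3.3), with TMM normalization, genes kept by filterByExpr (14760 of 54532) and 1 mean per group, and FK866 + NR was tested against FK866 with the two-sided quasi-likelihood F-test. Adjusted p-values are Benjamini-Hochberg over all genes tested, and SE was taken from the fold change and F. Genes were called at an adjusted p under 0.01 and over 1.5-fold, the study's thresholds for these cells. The fit was tested on simulated data. With 3 libraries per group an exact permutation test of 1 gene cannot go below p = 0.1. Symbols and positions come from the deposited table, and 54495 of 54532 gene identifiers were found in GENCODE M21 (GRCm38). Promoters are RefSeq's (GRCm38.p6), without chromosome 18.

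The gene lists and members were chosen with earlier results of these data known, and the brain list and the length and GC offsets after the data were seen. Named are, for each direction, the 12 called protein-coding genes that changed most and had a mean count of at least 50 and no overlap, all tested NAD and mitochondrially encoded genes, and up to 8 called members of each other list. Some of these genes are not reported here, and the counts of calls in their lists are left out. Alternatives were DESeq2 1.42.0, other scalings and filters, fitting 6 libraries, a replicate block and leaving out each of the 6 libraries compared. No untreated or Ex527 library was left out singly.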

Additional observations from a re-analysis of the deposited data

How the results depend on the processing

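Of the 710 calls, 679 were also made by DESeq2 on all 12 libraries, 568 by edgeR on only the 6 libraries compared and 526 with length and GC offsets, a correction chosen after seeing the data. The count of calls moved by over 1.5 times under 2 settings. Without a filter on low counts it was 1166, of which 848 were higher (72.7% against 58% in the reported fit), and at an adjusted p under 0.05 with no minimum fold it was 4265, with 2057 higher and 2208 lower. Leaving out each of the 6 libraries compared in turn gave 523 to 944 calls, 298 to 552 higher and 225 to 392 lower. The fewest came without FK866 replicate 2 and the most without FK866 replicate 3. Without FK866 + NR replicate 1, 530 of the 710 calls remained.

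Of 122 named genes that were called, 72 kept their call in every one of the 16 alternatives that tested them and 0 changed sign. Among the libraries left out, FK866 replicate 2 cost the most named calls (30 named genes), followed by FK866 + NR replicate 1 (26). With the offsets 26 were lost, mostly at an adjusted p under 0.01 but below the minimum fold. The cause was not tested. Same-numbered libraries did not deviate together (correlations of -0.01, 0.06 and -0.07). Such values cannot exclude a pairing of cultures, which no label states. With the replicate block 655 genes were called, 370 higher and 285 lower, and 644 were among the 710. Of 3139 genes with a mean under 50 normalized counts 76 were called, none with an absolute log2 fold change under 0.96, against 634 of 11621 genes at or over 50, called from 0.59 up.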
